A study of Mus musculus with 3 samples.

Results

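Thymic DN1 cells of gl/gl mice that carried a CD2-Ostm1 transgene were compared with DN1 cells of wild type mice, to describe which transcripts still differed from wild type when Ostm1 was supplied again. The comparison used 2 of the 3 libraries of the study, and 11286 of the 23348 usable entries of the expression table. A gene was taken when it reached 1 FPKM (fragments scaled for transcript length and library size) in at least 1 of both libraries and its symbol was not that of a small RNA or a predicted gene. The transgenic library pooled DN1 cells of 3 mice homozygous for the grey-lethal allele (gl/gl, Ostm1-/-) with the transgene, the gl/gl library pooled cells of 3 mice without it, and wild type cells came from a pool of 2 mice. All mice were 19 days old, of 129sv/C3H strain, and the cells were sorted from thymus as lineage-negative, CD44+ and CD25-. The labels name the transgene after CD2, a surface protein of T and NK cells, and do not say which CD2 sequences drove it or in how many founder lines it was made. Values of the gl/gl library are given beside the comparison and share the same wild type library.

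Ostm1 is the partner protein of the lysosomal chloride transporter Clcn7, and the grey-lethal mouse, which lacks it, develops osteopetrosis because its osteoclasts do not resorb bone. DN1 is the first of the CD4- CD8- stages of the thymus. It holds the bone marrow-derived progenitors that still make T cells, dendritic cells, mast cells and NK cells, and a sort of this gate also retains mature cells whose markers are not in the lineage cocktail. The marrow cavity from which these progenitors come is filled by unresorbed bone in osteopetrotic mice.

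With 1 library per genotype the differences have no replicate check, and genotype, pool of mice and library cannot be told apart. As read from the lowest values of 3298 genes with 1 annotated transcript, each fragment on 1 kb added roughly 0.0359 FPKM in CD2-Ostm1 gl/gl, 0.0345 in gl/gl and 0.0215 in wild type. At 5 FPKM a 2 kb transcript thus rested on roughly 251 fragments in CD2-Ostm1 gl/gl, 261 in gl/gl and 419 in wild type. The wild type library was thus about 1.67 times deeper than the transgenic one. The 4 Y-linked genes examined summed to 0.0959 FPKM in CD2-Ostm1 gl/gl, 119 in gl/gl and 0.0795 in wild type, and Xist had 235 FPKM in CD2-Ostm1 gl/gl, 0.184 in gl/gl and 116 in wild type. Of the gate's markers, Cd44 had 64.7 FPKM in CD2-Ostm1 gl/gl against 66.4 in wild type. Il2ra, which encodes CD25, the marker the sort excluded, had 4.03 FPKM in CD2-Ostm1 gl/gl against 5.94 in wild type.

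Ostm1 (chromosome 10, 42678916 to 42702462, mm10) had 5.35 FPKM in CD2-Ostm1 gl/gl, 0 in gl/gl and 19.6 in wild type. The transgenic level was 27.4% of wild type, a difference of -1.69 on the log2(FPKM + 1) scale used throughout. The labels do not say whether the transgene carries a cDNA, and the Ostm1 entry may then count its transcripts only in part. Clcn7 had 9.04 FPKM in CD2-Ostm1 gl/gl, 12.5 in gl/gl and 8.94 in wild type. Cd2 itself had 58.00 FPKM in CD2-Ostm1 gl/gl, 94.2 in gl/gl and 54.03 in wild type. Both libraries compared thus lay close in the endogenous gene the transgene is named after. Of the 13 measured genes of osteopetrosis and of chloride transporters, only Ostm1 was past 2-fold. Tcirg1, the osteoclast proton pump subunit, had 67.9 FPKM in CD2-Ostm1 gl/gl against 51.3 in wild type, and Snx10, an endosomal sorting protein, had 39.1 FPKM in CD2-Ostm1 gl/gl against 38.1 in wild type. The 34 lysosome genes all stayed within 2-fold, with a median difference of -0.24. Among them Psap, the precursor of the saposins, had 251 FPKM in CD2-Ostm1 gl/gl against 381 in wild type, and Ctsd, an aspartic protease, had 167 FPKM in CD2-Ostm1 gl/gl against 229.7 in wild type.

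Most of the transcriptome of the transgenic DN1 library lay close to wild type. The median difference over 11286 genes was -0.05, the central 95% of differences ran from -0.77 to 0.69, and 10388 genes (92%) were within 1.5-fold. At least 2-fold higher in CD2-Ostm1 gl/gl were 82 genes (0.727%), and at least 2-fold lower were 165 (1.46%). With both libraries brought to an equal upper quartile the counts were 123 higher and 151 lower. A pseudocount of 5 in place of 1 left 18 higher and 52 lower. The lower genes also went further: 26 were at least 4-fold lower and 4 at least 4-fold higher. The 82 higher genes had a median level of 6.9 FPKM in CD2-Ostm1 gl/gl, 3.25 in gl/gl and 1.89 in wild type, and the 165 lower genes had 1.14, 5.28 and 6.3 FPKM in the same libraries.

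**Figure D1:**
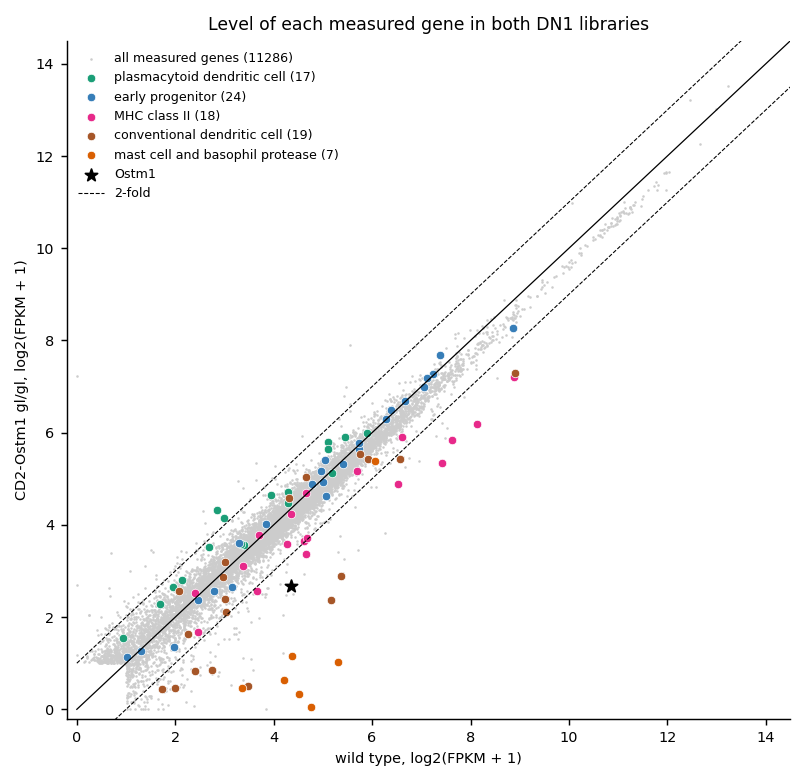
Level of each of 11286 measured genes in CD2-Ostm1 gl/gl (vertical) and wild type (horizontal), both as log2(FPKM + 1), with 1 point per gene and dashed lines at 2-fold. Mast cell proteases, several MHC class II genes and some dendritic cell genes lie below the lower dashed line, while the 24 early progenitor genes lie between the lines.

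The spread of differences depended on level. Among 1068 genes with a mean level under 2 FPKM the central 95% ran from -1.28 to 0.99, and among 2845 genes at 20 to 50 FPKM it ran from -0.50 to 0.42. The median moved from 0.16 in the lowest class to -0.30 among the 583 genes at 100 FPKM or more. A difference past 2-fold at high level was rare: 37 of the lower genes had at least 20 FPKM in wild type, and 15 of the higher genes had at least 20 FPKM in CD2-Ostm1 gl/gl. The 81 measured cytosolic ribosomal protein genes, which sit at the top of the range, had a median of -0.33, and 12 reference genes had -0.21.

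Progenitor transcripts lay close to wild type. None of 24 early progenitor genes was past 2-fold, with a median difference of 0.01, where the same genes had a median of -2.41 in gl/gl against wild type. Kit, the receptor of stem cell factor, had 102 FPKM in CD2-Ostm1 gl/gl, 15.3 in gl/gl and 101 in wild type. Flt3, a cytokine receptor of multipotent progenitors, had 48.9 FPKM in CD2-Ostm1 gl/gl, 23.3 in gl/gl and 51.9 in wild type. Angpt1, a ligand of the Tie2 receptor, had 127 FPKM in CD2-Ostm1 gl/gl, 2.24 in gl/gl and 132 in wild type. Every one of these was within 1.5-fold of wild type in the transgenic library. Dntt, the terminal transferase of antigen receptor genes, lay furthest below wild type in absolute level, with 309 FPKM in CD2-Ostm1 gl/gl, 18.7 in gl/gl and 462 in wild type, a difference of -0.58.

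Cell cycle genes and most genes of the T cell programme also lay close to wild type. The 24 DNA replication genes had a median of -0.09 and the 19 mitosis genes -0.22, none past 2-fold. Mcm6, a helicase subunit, had 166 FPKM in CD2-Ostm1 gl/gl against 190.3 in wild type, and Top2a, the mitotic topoisomerase, had 59.7 FPKM in CD2-Ostm1 gl/gl against 75.3 in wild type. Of 22 genes of T lineage specification 1 was past 2-fold, and of 20 genes of CD3 and proximal T cell receptor signalling none was. Tcf7 and Gata3, transcription factors of early T cells, had 136 FPKM in CD2-Ostm1 gl/gl against 146 in wild type and 21.8 FPKM in CD2-Ostm1 gl/gl against 18.5 in wild type. Notch1, the receptor that starts the T cell programme, had 137 FPKM in CD2-Ostm1 gl/gl against 108 in wild type, and its target Hes1 had 37.3 FPKM in CD2-Ostm1 gl/gl against 42.7 in wild type.

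The exception in the T cell list was Il7r, the receptor chain for interleukin 7, the survival cytokine of early lymphocytes. It had 67.5 FPKM in CD2-Ostm1 gl/gl, 286 in gl/gl and 182 in wild type, a difference of -1.42. Thy1 and Cd7, surface proteins of T lineage cells, were nearest to the threshold below it, with 64.9 FPKM in CD2-Ostm1 gl/gl against 118 in wild type and 94.5 FPKM in CD2-Ostm1 gl/gl against 158 in wild type. The 20 interferon response genes had none past 2-fold and a median of 0.12, and all 17 cholesterol synthesis genes lay below wild type without passing 2-fold, with a median of -0.32.

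Mast cell proteases had the lowest median of all lists. Mast cells and basophils store chymases, tryptases and a carboxypeptidase in their granules, and the genes of the chymase family lie in a cluster on mouse chromosome 14. Mcpt1, a mucosal mast cell chymase (chromosome 14, 56017964 to 56020391), had 0.0346 FPKM in CD2-Ostm1 gl/gl, 0.131 in gl/gl and 26.00 in wild type, a difference of -4.71. Mcpt2, its neighbour, had 1.03 FPKM in CD2-Ostm1 gl/gl, 0.212 in gl/gl and 38.8 in wild type. Cma1, the chymase also called Mcpt5, had 0.251 FPKM in CD2-Ostm1 gl/gl, 0.03403 in gl/gl and 21.8 in wild type. In each of these the transgenic library was near the gl/gl library and far below wild type.

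Mcpt4, a connective tissue mast cell chymase, had 0.556 FPKM in CD2-Ostm1 gl/gl, 0.0752 in gl/gl and 17.6 in wild type. The basophil gene Mcpt8 had 1.23 FPKM in CD2-Ostm1 gl/gl, 0.0942 in gl/gl and 19.7 in wild type. Tpsb2, a tryptase on chromosome 17, had 0.376 FPKM in CD2-Ostm1 gl/gl, 0 in gl/gl and 9.27 in wild type. Cpa3, the mast cell carboxypeptidase, stood apart from the others with 40.6 FPKM in CD2-Ostm1 gl/gl, 3.76 in gl/gl and 65.6 in wild type, or 61.8% of wild type. So 6 of the 7 measured members of this list were at least 2-fold lower, where 1.46% of all measured genes were, and none was higher, with a median of -3.58. Of the 6, Mcpt1, Cma1, Mcpt4 and Tpsb2 were under 1 FPKM in CD2-Ostm1 gl/gl and were measured only through wild type, which fixed their direction. The 12 members together summed to 44.2 FPKM in CD2-Ostm1 gl/gl, 4.34 in gl/gl and 199.5 in wild type. Exact 50-base words shared between the transcripts of Mcpt1, Mcpt2, Mcpt4, Mcpt8, Mcpt9 and Cma1 were at most 0.661% of any 1 of them.

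Other mast cell and basophil genes were lower in part. Of 15 measured, 8 were at least 2-fold lower, against 1.46% of all measured genes, and none was higher, with a median of -1.19. Cyp11a1, Slc45a3, Tph1 and Il1rl1 were under 1 FPKM in CD2-Ostm1 gl/gl and were measured only through wild type, which fixed their direction. Cyp11a1, a steroid-making enzyme found in mast cells, had 0.431 FPKM in CD2-Ostm1 gl/gl, 0.0394 in gl/gl and 7.82 in wild type. Gata2, a transcription factor that mast cells need, had 1.86 FPKM in CD2-Ostm1 gl/gl, 0.397 in gl/gl and 6.94 in wild type. Slc45a3, a solute carrier, had 0.888 FPKM in CD2-Ostm1 gl/gl, 0.346 in gl/gl and 4.66 in wild type, and Tph1, which starts serotonin synthesis, had 0.0652 FPKM in CD2-Ostm1 gl/gl, 0.127 in gl/gl and 2.62 in wild type. Il1rl1, the receptor of interleukin 33, had 0.451 FPKM in CD2-Ostm1 gl/gl, 8.76 in gl/gl and 3.498 in wild type, with the transgenic library below both others. Genes of wider use differed among themselves. Cd63, a tetraspanin of granules and endosomes in many cell types, had 4.43 FPKM in CD2-Ostm1 gl/gl, 29.8 in gl/gl and 13.1 in wild type and was past 2-fold. Srgn, the core protein of granule proteoglycans, had 255 FPKM in CD2-Ostm1 gl/gl against 345 in wild type, and Kit, listed above with the progenitor genes, had 101% of its wild type level. For Fcer1a, the IgE receptor chain, the table gives 0 in CD2-Ostm1 gl/gl and gl/gl against 0.889 FPKM in wild type, under the minimum.

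The start of these genes was searched for the letters AGATAA and TGATAA, which GATA factors bind, on both strands of the 250 bases before to 50 after each RefSeq start (GRCm38.p6). They were present in 3 of the 5 genes with an entry (Cpa3, Mcpt1 and Mcpt4, but not Cma1 and Mcpt8), and in 21% of 27025 genes with an entry. Mcpt2 and Tpsb2 had no entry in the promoter set used and were not searched. A stretch of 110 bases is shown for the 3 genes because Cpa3 lay nearer to wild type than the other two. Capitals mark the letters searched.
Mcpt1 (chr14:56017813-56017922, plus strand): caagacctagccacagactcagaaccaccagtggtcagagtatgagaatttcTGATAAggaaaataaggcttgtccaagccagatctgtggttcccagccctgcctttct
Mcpt4 (chr14:56062356-56062465, minus strand): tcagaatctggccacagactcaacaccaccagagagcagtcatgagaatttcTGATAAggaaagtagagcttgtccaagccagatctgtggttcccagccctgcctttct
Cpa3 (chr3:20242170-20242279, minus strand): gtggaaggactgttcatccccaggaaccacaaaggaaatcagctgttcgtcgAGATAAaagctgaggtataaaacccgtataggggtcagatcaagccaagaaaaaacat

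MHC class II transcripts were lower in part in CD2-Ostm1 gl/gl. These proteins present peptides to CD4+ T cells, are made by dendritic cells, B cells, macrophages and thymic epithelium, and are switched on by the coactivator Ciita. H2-Aa, the alpha chain of I-A (chromosome 17, 34282751 to 34287771), had 72.04 FPKM in CD2-Ostm1 gl/gl, 380.0 in gl/gl and 279.6 in wild type, a difference of -1.94. H2-Ab1, its beta chain, had 39.5 FPKM in CD2-Ostm1 gl/gl, 183 in gl/gl and 170.1 in wild type, a difference of -2.08. H2-Eb1, the beta chain of I-E, had 28.6 FPKM in CD2-Ostm1 gl/gl, 151 in gl/gl and 91.04 in wild type. The transgenic library was the lowest of the 3 in each.

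Cd74, the invariant chain that escorts class II molecules, had 148 FPKM in CD2-Ostm1 gl/gl, 668 in gl/gl and 471 in wild type. H2-DMb1, part of the peptide exchange factor, had 9.38 FPKM in CD2-Ostm1 gl/gl, 21.7 in gl/gl and 24.1 in wild type, and H2-DMa, its partner, had 11.5 FPKM in CD2-Ostm1 gl/gl, 26.6 in gl/gl and 23.6 in wild type. Ciita had 4.93 FPKM in CD2-Ostm1 gl/gl, 22.6 in gl/gl and 11.6 in wild type, a difference of -1.09. The list median was -0.87, where the same list had a median of 0.54 in gl/gl against wild type. In all 7 of 18 measured genes were at least 2-fold lower, where 1.46% of all measured genes were, and none was higher. The seventh was H2-Ea-ps, the I-E alpha entry, with 56.6 FPKM in CD2-Ostm1 gl/gl against 197 in wild type.

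Several members of the class II list did not follow the presenting chains. H2-Oa and H2-Ob, which form the inhibitor of peptide exchange, had 17.8 FPKM in CD2-Ostm1 gl/gl against 19.6 in wild type and 24.8 FPKM in CD2-Ostm1 gl/gl against 24.2 in wild type. The general promoter factors Rfx5, Rfxap and Rfxank had differences of 0.07, -0.26 and 0.12. Ctss and Ifi30, which prepare antigen in endosomes, had 58.8 FPKM in CD2-Ostm1 gl/gl against 96.2 in wild type and 35.05 FPKM in CD2-Ostm1 gl/gl against 50.5 in wild type, both under 2-fold.

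Class II promoters carry an X box followed by a Y box, an inverted CCAAT with the letters GATTGG. Those letters, searched on both strands of the same window, were present in 7 of 7 genes with an entry in the promoter set used (for H2-DMa before only 1 of its 2 starts). Over all 27025 genes with an entry, 18.2% held them. The letters were also in H2-Oa and H2-Ob, whose levels were near wild type. H2-Ab1 and Ciita had no entry in that set and were not searched. The stretches below show 3 genes at least 2-fold lower and then H2-Ob. Capitals mark GATTGG or its reverse complement.
H2-Aa (chr17:34287815-34287924, minus strand): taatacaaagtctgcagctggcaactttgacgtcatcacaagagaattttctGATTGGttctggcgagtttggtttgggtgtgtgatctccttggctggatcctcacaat
H2-Eb1 (chr17:34305755-34305864, plus strand): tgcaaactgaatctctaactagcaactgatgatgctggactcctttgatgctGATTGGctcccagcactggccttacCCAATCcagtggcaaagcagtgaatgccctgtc
H2-DMb1 (chr17:34153077-34153186, plus strand): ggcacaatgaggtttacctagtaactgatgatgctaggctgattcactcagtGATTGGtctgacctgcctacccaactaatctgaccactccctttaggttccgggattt
H2-Ob (chr17:34238795-34238904, plus strand): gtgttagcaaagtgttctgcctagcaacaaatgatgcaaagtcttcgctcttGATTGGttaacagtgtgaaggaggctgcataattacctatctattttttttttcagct

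**Figure D2:**
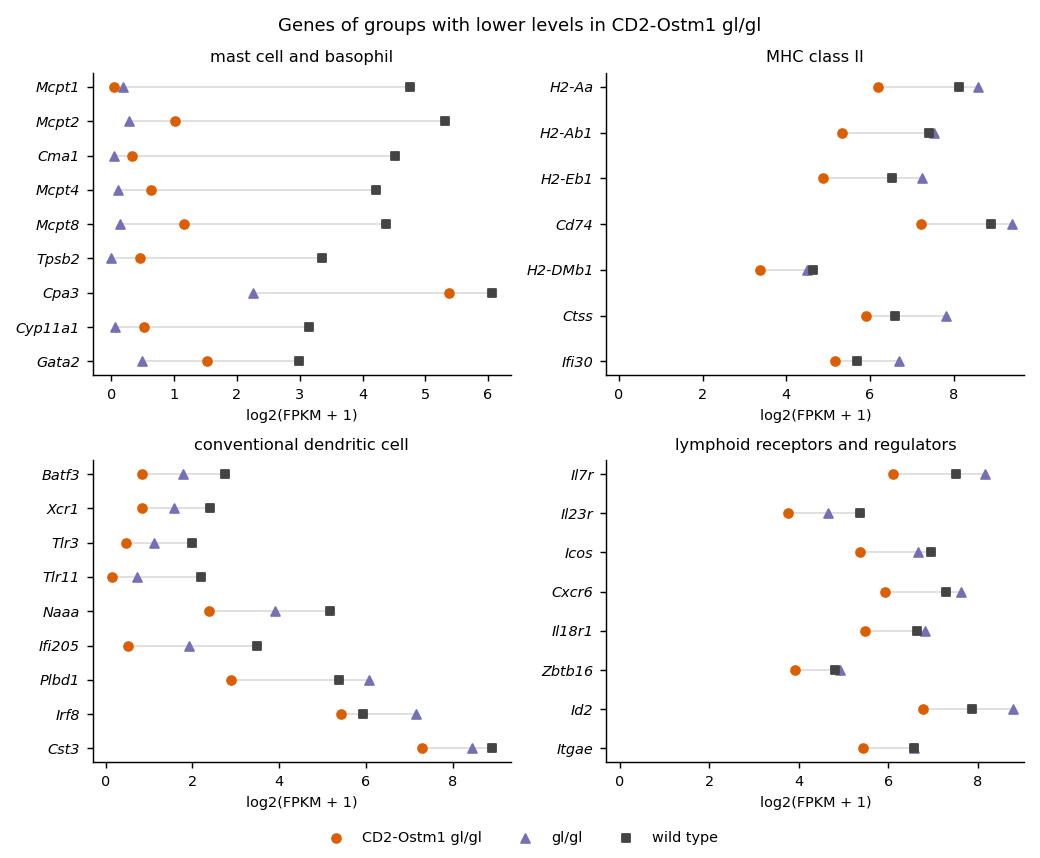
Level of genes in the 3 libraries as log2(FPKM + 1), in panels for mast cell and basophil, MHC class II, conventional dendritic cell and lymphoid genes, with 1 marker per library. Circles for CD2-Ostm1 gl/gl lie left of the squares for wild type in every row, while the triangles for gl/gl lie near the circles for the chymases and near or right of the squares for MHC class II.

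Of 19 measured conventional dendritic cell genes, 9 were at least 2-fold lower, where 1.46% of all measured genes were, and none was higher. The list median was -0.92. Conventional dendritic cells of the thymus consist of a cross-presenting subset, cDC1, that depends on Batf3 and Irf8, and a cDC2 subset that uses Irf4. Batf3 had 0.794 FPKM in CD2-Ostm1 gl/gl, 2.45 in gl/gl and 5.69 in wild type. Xcr1, the chemokine receptor that defines cDC1, had 0.786 FPKM in CD2-Ostm1 gl/gl, 1.96 in gl/gl and 4.29 in wild type, and Clec9a, their receptor for dead cells, had 0.349 FPKM in CD2-Ostm1 gl/gl, 0.897 in gl/gl and 2.301 in wild type. Tlr3, which senses double-stranded RNA, had 0.385 FPKM in CD2-Ostm1 gl/gl, 1.16 in gl/gl and 3.002 in wild type. All 4 were lowest in the transgenic library, with wild type highest. They were under 1 FPKM in CD2-Ostm1 gl/gl and were measured only through wild type, which fixed their direction.

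Naaa, a lysosomal amidase abundant in cDC1, had 4.199 FPKM in CD2-Ostm1 gl/gl, 13.9 in gl/gl and 34.9 in wild type, a difference of -2.79. Ifi205, an Ifi200 family gene, had 0.429 FPKM in CD2-Ostm1 gl/gl, 2.81 in gl/gl and 10.2 in wild type. It too was measured only through wild type, which fixed its direction. Plbd1, a phospholipase-like protein of myeloid cells, had 6.38 FPKM in CD2-Ostm1 gl/gl, 66.5 in gl/gl and 40.6 in wild type. Cst3, cystatin C, was the most abundant gene of the list, with 156 FPKM in CD2-Ostm1 gl/gl, 344 in gl/gl and 476 in wild type.

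A narrower cDC1 list, written after the values were seen, held 12 measured genes. Of these 10 were at least 2-fold lower, where 1.46% of all measured genes were. The exceptions were Irf8, with 41.8 FPKM in CD2-Ostm1 gl/gl, 141 in gl/gl and 59.6 in wild type, and Wdfy4, a protein of cross-presentation, with 45.3 FPKM in CD2-Ostm1 gl/gl, 19.9 in gl/gl and 52.9 in wild type. Tlr11, the mouse sensor of profilin, belonged to the lower ones with 0.109 FPKM in CD2-Ostm1 gl/gl against 3.62 in wild type. Among the lower ones, Batf3, Xcr1, Ifi205 and Tlr11 were under 1 FPKM in CD2-Ostm1 gl/gl. They were measured only through wild type, which fixed their direction. A cDC2 list, also written after the values were seen, had 1 gene higher and 1 lower of 9 measured, and a median of 0.13. Over all measured genes 0.727% were higher and 1.46% lower. The difference between these lists was not tested, and their members were chosen with the values known. Irf4 had 8.09 FPKM in CD2-Ostm1 gl/gl against 7.096 in wild type, Sirpa, a surface receptor of cDC2, had 23.05 FPKM in CD2-Ostm1 gl/gl against 18.9 in wild type, and Clec10a, a lectin, had 4.89 FPKM in CD2-Ostm1 gl/gl against 3.21 in wild type. The gene past 2-fold below wild type was Cd209e and the one above was Cd209c, both lectins of the DC-SIGN family, with 0.354 FPKM in CD2-Ostm1 gl/gl against 2.72 in wild type and 12.9 FPKM in CD2-Ostm1 gl/gl against 5.28 in wild type. Cd209e was measured only through wild type, which fixed its direction.

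Other members of the conventional dendritic cell list were under 2-fold. Zbtb46, a lineage factor of both subsets, had 2.09 FPKM in CD2-Ostm1 gl/gl, 3.59 in gl/gl and 3.76 in wild type, and Itgax, which encodes CD11c, had 4.27 FPKM in CD2-Ostm1 gl/gl, 10.95 in gl/gl and 7.09 in wild type. Ccr7, the receptor of migrating dendritic cells, had 31.7 FPKM in CD2-Ostm1 gl/gl against 24.3 in wild type, and Fscn1, an actin bundler of mature ones, had 6.28 FPKM in CD2-Ostm1 gl/gl against 6.87 in wild type. In a pooled library fewer cells of a type and less RNA per cell cannot be told apart.

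Plasmacytoid dendritic cell genes lay on the other side. These cells make type I interferon and share the factors Tcf4 and Spib. Siglech, their surface lectin, had 19.00 FPKM in CD2-Ostm1 gl/gl, 69.3 in gl/gl and 6.199 in wild type, a difference of 1.47. Spib had 16.7 FPKM in CD2-Ostm1 gl/gl, 40.4 in gl/gl and 6.95 in wild type. These were the 2 genes at least 2-fold higher of 17 measured, and none was lower, against 0.727% and 1.46% of all measured genes. Of the 17 differences 16 were above 0, and the median was 0.59, against -0.05 over all measured genes. Runx2, Lair1 and Klk1 came next, with differences of 0.72, 0.83 and 0.72. Bst2 and Irf7, which interferon induces, differed by 0.08 and -0.05. For these genes the transgenic value often lay between wild type and gl/gl, as for Tlr9, a DNA sensor, with 3.84 FPKM in CD2-Ostm1 gl/gl, 8.24 in gl/gl and 2.21 in wild type.

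B lineage genes were also higher in part. Of 18 measured, 3 were at least 2-fold higher and 1 lower, 16 differences were above 0, and the median was 0.73. The shares over all measured genes were 0.727% higher and 1.46% lower. Pax5, the factor of B cell identity, had 4.202 FPKM in CD2-Ostm1 gl/gl, 7.69 in gl/gl and 1.54 in wild type. Vpreb3, expressed in precursor and germinal centre B cells, had 9.57 FPKM in CD2-Ostm1 gl/gl, 0.182 in gl/gl and 1.92 in wild type. For Pax5 the gl/gl value was higher still, and for Vpreb3 it was the lowest. Cd79a, Blnk and Fcrla were just under 2-fold, with differences of 0.96, 0.97 and 0.97. They were past it, at 1.012, 1.015 and 1.024, once both libraries were scaled to a median gene ratio of 1. Blk, a kinase used by B cells and by some gamma delta T cells, went the other way with 39.5 FPKM in CD2-Ostm1 gl/gl, 65.9 in gl/gl and 81.5 in wild type, and was under 2-fold (-0.97) once both libraries were scaled to a median gene ratio of 1.

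**Figure D3:**
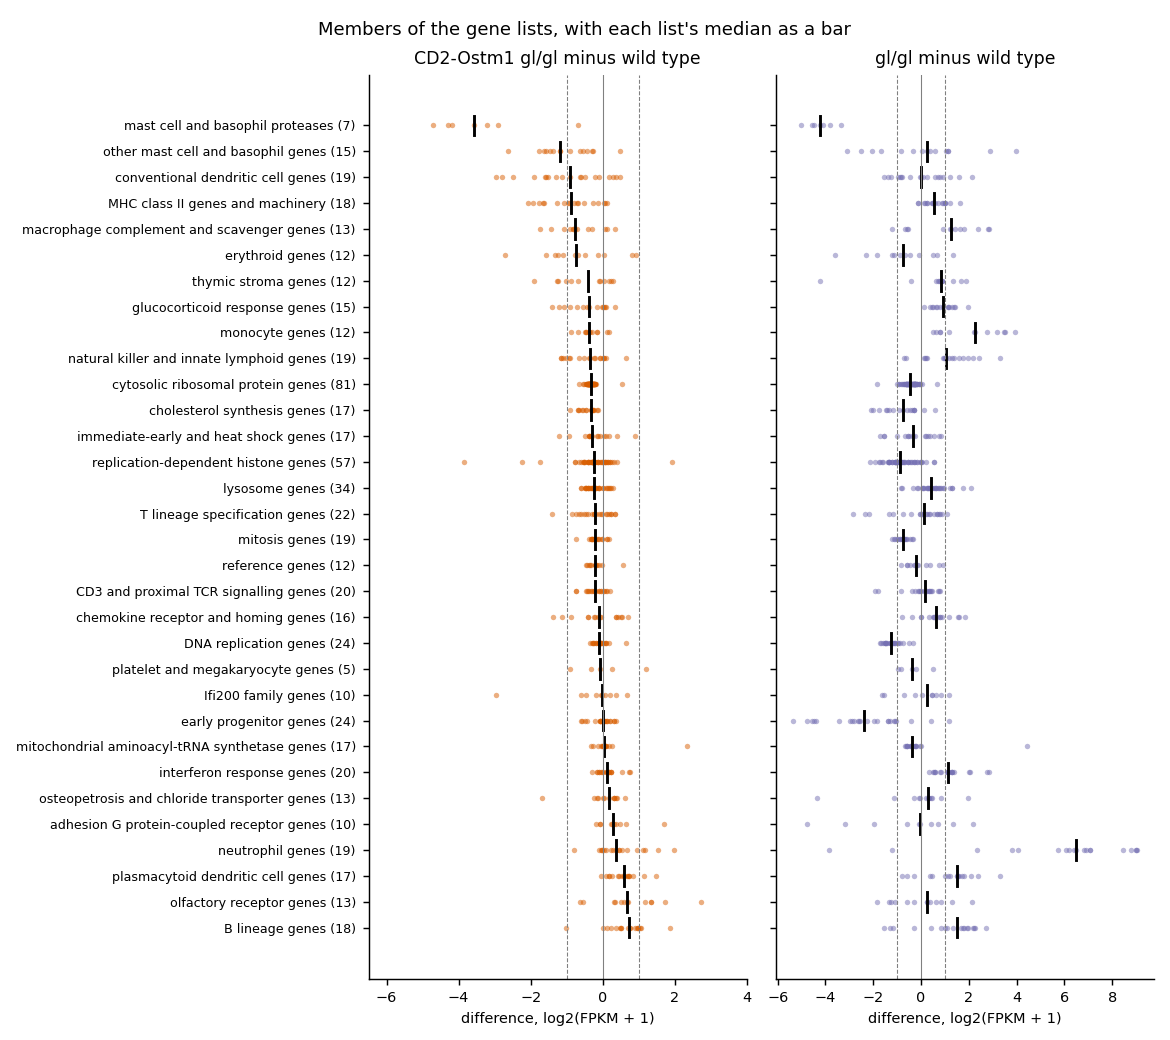
Difference of each measured member from wild type on the log2(FPKM + 1) scale, for CD2-Ostm1 gl/gl (left) and gl/gl (right), by gene list, with the number of measured members in brackets, bars at the list medians and dashed lines at 2-fold. The left panel runs from the mast cell proteases, with a median of -3.58, to the B lineage genes, with 0.73. The panels share the wild type library.

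Some receptors of innate-like lymphocytes were lower. These cells include NK cells, innate lymphoid cells and interleukin 17-producing gamma delta T cells, and the sort of lineage-negative cells can retain such cells. Il23r and Icos, like Lmo4 below, were chosen after their values were seen. Il23r, the interleukin 23 receptor of type 17 lymphocytes, had 12.6 FPKM in CD2-Ostm1 gl/gl, 23.96 in gl/gl and 39.9 in wild type, a difference of -1.59. Icos, a costimulatory receptor, had 40.5 FPKM in CD2-Ostm1 gl/gl, 99.8 in gl/gl and 124 in wild type. Cxcr6, a chemokine receptor of tissue lymphocytes, had 59.6 FPKM in CD2-Ostm1 gl/gl, 197 in gl/gl and 155 in wild type. Il18r1, a receptor chain for interleukin 18, had 43.3 FPKM in CD2-Ostm1 gl/gl, 112 in gl/gl and 98.5 in wild type. In each of the 4 the transgenic library was the lowest.

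Id2, an inhibitor of E proteins in innate lymphocytes, had 108 FPKM in CD2-Ostm1 gl/gl, 441 in gl/gl and 232 in wild type. Zbtb16, which encodes the factor PLZF of innate-like lymphocytes, was under 2-fold with 14.03 FPKM in CD2-Ostm1 gl/gl, 29.4 in gl/gl and 27.2 in wild type. Lmo4, a LIM-domain cofactor, had 37.4 FPKM in CD2-Ostm1 gl/gl, 138 in gl/gl and 100.2 in wild type, and Itgae, the CD103 integrin chain of intraepithelial lymphocytes and cDC1, had 42.2 FPKM in CD2-Ostm1 gl/gl, 93.6 in gl/gl and 93.6 in wild type. The 19 measured genes of NK and innate lymphoid cells had a median of -0.36, and none was at least 2-fold higher. Of them, 4 were at least 2-fold lower, against 1.46% of all measured genes. Besides Il18r1 and Id2 these were Gzmb, granzyme B, with 27.4 FPKM in CD2-Ostm1 gl/gl against 62.1 in wild type, and Klrb1c, the NK1.1 antigen, with 16.6 FPKM in CD2-Ostm1 gl/gl against 34.5 in wild type. Klrb1c was under 2-fold (-0.96) once both libraries were scaled to a median gene ratio of 1. With the median of genes of like level subtracted, Il18r1 (-0.97), Id2 (-0.80) and Klrb1c (-0.91) were all under 2-fold, which leaves Gzmb of the 4.

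Other NK genes of the list were under 2-fold. Ncr1, the NKp46 receptor, had 19.9 FPKM in CD2-Ostm1 gl/gl, 71.9 in gl/gl and 12.4 in wild type, a difference of 0.64, above the central 95% of genes at 10 to 20 FPKM, which ended at 0.52. Eomes and Tbx21, the T-box factors, differed by -0.23 and -0.08, and Nkg7, Gzma and Il2rb by -0.07, 0.04 and 0.02. A list of type 17 lymphocyte genes, written after the values were seen, had 6 lower and 1 higher of 18 measured and a median of -0.67. Over all measured genes 1.46% were lower and 0.727% higher. The higher member of the type 17 list was Il17f, the cytokine interleukin 17F, with 3.13 FPKM in CD2-Ostm1 gl/gl, 1.39 in gl/gl and 0.184 in wild type. It was measured only through CD2-Ostm1 gl/gl, which fixed its direction. Il17a was under the minimum with 0.591 FPKM in CD2-Ostm1 gl/gl, 1.095 in gl/gl and 0.2295 in wild type. Sox13, a factor of gamma delta T cells, had 35.4 FPKM in CD2-Ostm1 gl/gl, 8.53 in gl/gl and 24.9 in wild type, and Maf, Ccr6 and Rora differed by -0.16, -0.21 and -0.27.

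Macrophage, erythroid and epithelial genes gave smaller groups of lower transcripts. C1qa and C1qc, chains of complement C1q made by macrophages, had 2.38 FPKM in CD2-Ostm1 gl/gl, 20.7 in gl/gl and 8.12 in wild type and 1.89 FPKM in CD2-Ostm1 gl/gl, 21.3 in gl/gl and 8.67 in wild type. Together with Vcam1, an adhesion molecule, they were the 3 lower of 13 measured, against 1.46% of all measured genes, with none higher. Csf1r, the macrophage growth factor receptor, had 17.6 FPKM in CD2-Ostm1 gl/gl against 15.5 in wild type, and none of 12 measured monocyte genes was past 2-fold. The macrophage list summed to 177 FPKM in CD2-Ostm1 gl/gl, 739.7 in gl/gl and 302 in wild type.

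Car1, an erythroid carbonic anhydrase, had 0.815 FPKM in CD2-Ostm1 gl/gl against 10.99 in wild type and was listed at 0 in gl/gl. Gata1 and Klf1, the erythroid transcription factors, had 0.577 FPKM in CD2-Ostm1 gl/gl against 2.37 in wild type and 0.192 FPKM in CD2-Ostm1 gl/gl against 1.84 in wild type. The alpha globin entry had 0.588 FPKM in CD2-Ostm1 gl/gl against 3.704 in wild type and the beta globin entry 0.00501 FPKM in CD2-Ostm1 gl/gl against 1.54 in wild type. These 5 were the lower ones of 12 measured, against 1.46% of all measured genes, with none higher. All 5 were under 1 FPKM in CD2-Ostm1 gl/gl and were measured only through wild type, so the filter fixed their direction. Tfrc, the transferrin receptor, had 87.9 FPKM in CD2-Ostm1 gl/gl against 45.6 in wild type and was just under 2-fold above. It passed 2-fold (1.029) with an equal upper quartile.

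Of 12 measured thymic stroma genes 4 were at least 2-fold lower, against 1.46% of all measured genes, and none was higher. Krt5, Krt8 and Krt18, keratins of thymic epithelium, had 0.325 FPKM in CD2-Ostm1 gl/gl against 4.02 in wild type, 3.56 FPKM in CD2-Ostm1 gl/gl against 9.93 in wild type and 4.65 FPKM in CD2-Ostm1 gl/gl against 12.5 in wild type. Krt5 was under 1 FPKM in CD2-Ostm1 gl/gl and was measured only through wild type, which fixed its direction. Ccl25, the thymic ligand of Ccr9, had 6.57 FPKM in CD2-Ostm1 gl/gl against 14.4 in wild type. It was under 2-fold (-0.98) once both libraries were scaled to a median gene ratio of 1. Epcam, an epithelial adhesion molecule, had 2.19 FPKM in CD2-Ostm1 gl/gl against 2.34 in wild type, and Foxn1, the defining factor of thymic epithelium, had 0.214 FPKM in CD2-Ostm1 gl/gl, 0.9801 in gl/gl and 0.142 in wild type. The list summed to 125 FPKM in CD2-Ostm1 gl/gl, 181 in gl/gl and 141 in wild type. Pdgfrb and Pecam1, also in the list, had 54.6 FPKM in CD2-Ostm1 gl/gl against 46.8 in wild type and 35.9 FPKM in CD2-Ostm1 gl/gl against 29.5 in wild type. They made up most of the sum in both libraries compared, so the sum does not give the level of the epithelial genes. Class II genes are used by epithelium, macrophages, B cells and dendritic cells, and the part of each of these groups in the class II values was not tested.

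Other single genes among the lowest had roles outside these lists. Sdc1, syndecan 1, had 6.72 FPKM in CD2-Ostm1 gl/gl, 21.8 in gl/gl and 41.7 in wild type, a difference of -2.47. Slpi, a secreted inhibitor of leukocyte proteases, had 13.1 FPKM in CD2-Ostm1 gl/gl, 84.8 in gl/gl and 75.8 in wild type. Kcnk1, a potassium channel, had 0.543 FPKM in CD2-Ostm1 gl/gl, 3.098 in gl/gl and 9.38 in wild type. Scin, an actin-severing protein, had 9.701 FPKM in CD2-Ostm1 gl/gl, 1.06 in gl/gl and 38.5 in wild type, and was thus higher in the transgenic library than in gl/gl and still below wild type. Lgals3, galectin 3, and S100a4, a calcium-binding protein, were abundant examples with 58.1 FPKM in CD2-Ostm1 gl/gl against 178 in wild type and 144 FPKM in CD2-Ostm1 gl/gl against 369.7 in wild type. Mt1 and Mt2, the metallothioneins, were lower as well: Mt1 had 0.818 FPKM in CD2-Ostm1 gl/gl against 3.25 in wild type, while for Mt2 the table gives 0 in CD2-Ostm1 gl/gl against 1.11 FPKM in wild type. The glucocorticoid targets Tsc22d3 and Fkbp5 differed by 0.07 and -0.15.

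Near-identical copies make a few of the lowest entries uncertain. The joint entry of Eif3j1 and Eif3j2, subunits of a translation initiation factor, had 1.34 FPKM in CD2-Ostm1 gl/gl, 3.23 in gl/gl and 17.1 in wild type, whereas the separate Eif3j2 entry had 30.9 FPKM in CD2-Ostm1 gl/gl, 21.3 in gl/gl and 15.3 in wild type. Of the 50-base words of Eif3j2 transcripts, 90.8% are also in Eif3j1. In the same way the joint entry of Amd1 and Amd2, which make polyamine precursors, had 1.14 FPKM in CD2-Ostm1 gl/gl, 0.0128 in gl/gl and 10.6 in wild type, and the separate Amd2 entry had 64.2 FPKM in CD2-Ostm1 gl/gl, 37.1 in gl/gl and 58.1 in wild type. Of the words of Amd2, 85.7% are in Amd1. For Hist1h3b, a histone H3 gene, the table gives 0 in CD2-Ostm1 gl/gl against 13.4 FPKM in wild type, and 58% of its words are in Hist1h3c or Hist1h3d. The 57 measured histone genes had 1 higher and 3 lower, where 0.727% and 1.46% of all measured genes were.

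Among higher genes, the stefin A genes on chromosome 16 were low in wild type and very high in gl/gl. They encode cytosolic inhibitors of cysteine proteases and are expressed in neutrophils. Stfa3 had 5.24 FPKM in CD2-Ostm1 gl/gl, 829 in gl/gl and 0.572 in wild type, Stfa2 had 3.02 FPKM in CD2-Ostm1 gl/gl, 716 in gl/gl and 0.399 in wild type, and Stfa1 had 2.05 FPKM in CD2-Ostm1 gl/gl, 599 in gl/gl and 0.344 in wild type. BC100530, a stefin-like gene of the same cluster, had 5.49 FPKM in CD2-Ostm1 gl/gl and 949.8 in gl/gl, with wild type listed at 0. With Cxcr2, the neutrophil chemokine receptor, at 7.57 FPKM in CD2-Ostm1 gl/gl, 65.1 in gl/gl and 2.97 in wild type, 4 of 19 measured neutrophil genes were at least 2-fold higher and none lower. Over all measured genes 0.727% were higher. Stfa1, Stfa2 and Stfa3 were under 1 FPKM in wild type and were measured only through CD2-Ostm1 gl/gl, which fixed their direction. Of the 4, only Cxcr2 reached 1 FPKM in both libraries.

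The most abundant neutrophil transcripts did not share this. S100a8 had 103 FPKM in CD2-Ostm1 gl/gl, 14728 in gl/gl and 109.7 in wild type, and S100a9 differed from wild type by -0.03. Camp, a granule peptide, had 16.7 FPKM in CD2-Ostm1 gl/gl against 15.6 in wild type, and Mpo, the myeloperoxidase of granulocyte precursors, had 179.9 FPKM in CD2-Ostm1 gl/gl, 9.71 in gl/gl and 152 in wild type. Elane, neutrophil elastase, was under the minimum with 0.287 FPKM in CD2-Ostm1 gl/gl against 0.424 in wild type. The list summed to 454 FPKM in CD2-Ostm1 gl/gl, 32580.0 in gl/gl and 412 in wild type.

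**Figure D4:**
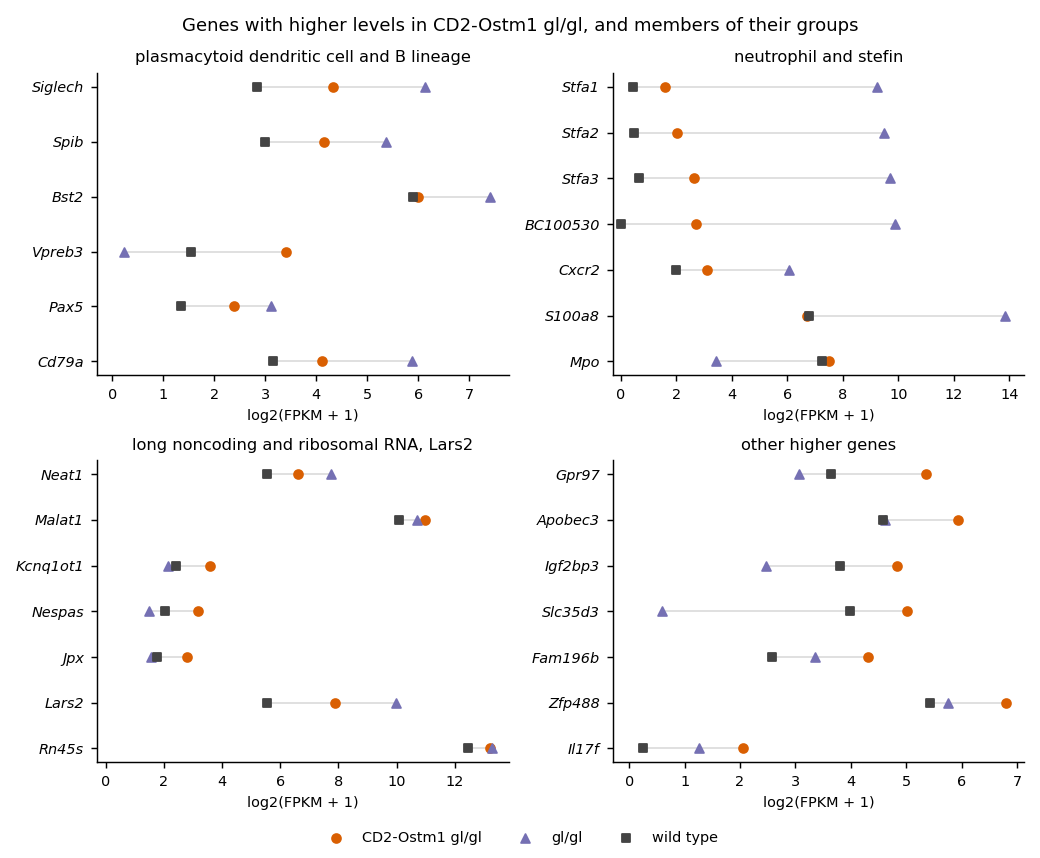
Level of genes in the 3 libraries as log2(FPKM + 1), in panels for plasmacytoid dendritic cell and B lineage, neutrophil and stefin, long noncoding and ribosomal RNA with Lars2, and other higher genes, with 1 marker per library. Circles for CD2-Ostm1 gl/gl lie right of the squares for wild type except for S100a8, and lie far from the gl/gl triangles for the stefins.

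Gpr97, an adhesion receptor of myeloid and lymphoid cells, had 39.7 FPKM in CD2-Ostm1 gl/gl, 7.35 in gl/gl and 11.5 in wild type, a difference of 1.70. It was the only gene past 2-fold of 10 measured adhesion receptor genes, where 2.19% of all measured genes were. Its chromosomal neighbour Gpr56 had 204 FPKM in CD2-Ostm1 gl/gl, 5.07 in gl/gl and 165 in wild type. Apobec3, a cytidine deaminase that restricts retroviruses, had 59.6 FPKM in CD2-Ostm1 gl/gl, 23.5 in gl/gl and 22.97 in wild type. Igf2bp3, an RNA-binding protein of fetal haematopoiesis, had 27.4 FPKM in CD2-Ostm1 gl/gl, 4.504 in gl/gl and 12.96 in wild type, and Slc35d3, a transporter needed for platelet granules, had 31.4 FPKM in CD2-Ostm1 gl/gl, 0.511 in gl/gl and 14.7 in wild type. In Gpr97, Apobec3, Igf2bp3 and Slc35d3 the transgenic library was the highest of the 3.

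Lars2, the mitochondrial leucyl-tRNA synthetase, had 237 FPKM in CD2-Ostm1 gl/gl, 1018 in gl/gl and 46.1 in wild type, a difference of 2.34. The other 16 measured mitochondrial synthetase genes were within 2-fold, and the list median was 0.04. The ribosomal RNA precursor entry Rn45s had 9511 FPKM in CD2-Ostm1 gl/gl, 9819.9 in gl/gl and 5593 in wild type, and was thus higher in the same libraries as Lars2, and its part in the Lars2 value was not tested.

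Some long noncoding RNAs kept in the nucleus were higher. In a list written after the values were seen, which supports no statement on the class, 6 of 9 measured were at least 2-fold higher and none lower, with a median of 1.04. Neat1, the scaffold of paraspeckles, had 97.6 FPKM in CD2-Ostm1 gl/gl, 213 in gl/gl and 46.2 in wild type. Malat1, of nuclear speckles, was just under 2-fold with 2024 FPKM in CD2-Ostm1 gl/gl, 1645 in gl/gl and 1073 in wild type. It passed 2-fold (1.012) with an equal upper quartile. Kcnq1ot1 and Nespas, antisense transcripts of imprinted loci, had 11.1 FPKM in CD2-Ostm1 gl/gl against 4.35 in wild type and 8.08 FPKM in CD2-Ostm1 gl/gl against 3.12 in wild type. Jpx, an activator of Xist, had 6.01 FPKM in CD2-Ostm1 gl/gl against 2.404 in wild type, and Xist itself, given above, differed by 1.01. The strand setting of the counting is not given, so reads of these antisense transcripts and of their overlapping genes may be mixed.

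Olfactory receptor genes, which encode odorant receptors of the nose, had 5 higher and none lower among 13 measured of 1094 entries. Over all measured genes 0.727% were higher. Of the 5, Olfr164 and Olfr165 were under 1 FPKM in wild type and were measured only through CD2-Ostm1 gl/gl, which fixed their direction. Olfr164 had 9.56 FPKM in CD2-Ostm1 gl/gl, 6.100 in gl/gl and 0.609 in wild type, Olfr649 had 7.64 FPKM in CD2-Ostm1 gl/gl, 0.111 in gl/gl and 1.62 in wild type, and Olfr613 had 30.2 FPKM in CD2-Ostm1 gl/gl, 15.2 in gl/gl and 11.5 in wild type. The highest difference of all, 7.23, belonged to AF357399, with 149.5 FPKM in CD2-Ostm1 gl/gl and listed at 0 in gl/gl and wild type. The annotation gives AF357399 as 1 exon of 125 bases, shorter than the 200-base fragments assumed for depth, and its symbol did not match the patterns by which small RNAs were left out. Its locus in the table is that of Rps16, a ribosomal protein gene, with 1771 FPKM in CD2-Ostm1 gl/gl against 2119 in wild type. Vasn, a membrane protein gene, had 29.7 FPKM in CD2-Ostm1 gl/gl against 8.64 in wild type and shares its locus in the table with Coro7, an actin regulator with 69.3 FPKM in CD2-Ostm1 gl/gl against 56.1 in wild type.

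Higher and lower genes were set beside all measured genes by structure. Of 80 higher genes matched to the annotation, 14 (17.5%) had a single exon, and of 163 matched lower genes 8 (4.91%) did, where 249 of 11231 matched measured genes (2.22%) did. The median number of exons was 3 in the higher genes, 6 in the lower genes and 9 over all. Entries that gave the same locus as another entry made up 32.5% of the higher genes and 12.9% of the lower genes, against 17.9% of all. Both sets are low in the range of expression, and at a mean level of 5 FPKM or more 2.42% of 165 single-exon genes were higher, against 0.336% of 8632 others.

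**Figure D5:**
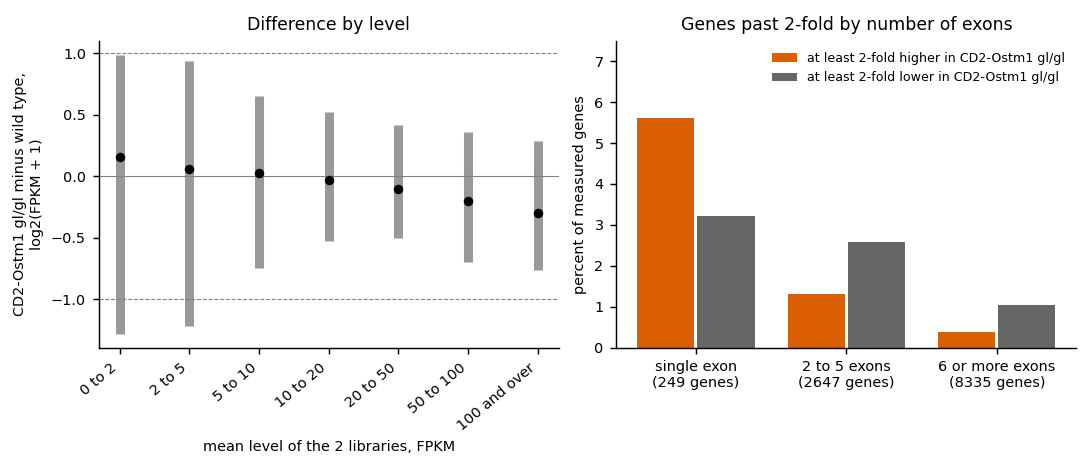
Left, the difference between CD2-Ostm1 gl/gl and wild type on the log2(FPKM + 1) scale by mean level, with points for medians, bars for the central 95% of genes and dashed lines at 2-fold. Right, the percent of measured genes at least 2-fold higher or lower in CD2-Ostm1 gl/gl by number of exons, where 5.62% of single-exon genes were higher.

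By position, few genes near Ostm1 were past 2-fold. Within 10 Mb of Ostm1 on chromosome 10, where DNA of the strain that carried the gl allele can remain, 50 other genes were measured. Of these 1 was higher and 1 lower, or 4% past 2-fold, where 2.19% of all measured genes were. The higher one was Col10a1, a collagen gene, with 4.12 FPKM in CD2-Ostm1 gl/gl against 0.945 in wild type. Its entry gives the same locus as Nt5dc1, which had 19.5 FPKM in CD2-Ostm1 gl/gl against 21.5 in wild type. The lower one was the joint Amd1 and Amd2 entry, described above as uncertain. Sec63 and Snx3, which lie next to Ostm1, had 18.4 FPKM in CD2-Ostm1 gl/gl against 13.4 in wild type and 50.1 FPKM in CD2-Ostm1 gl/gl against 65.03 in wild type.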

How the data were processed

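RNA of sorted DN1 cells was sequenced in 1 pooled library per genotype. The deposited table gives 1 value per gene and library. Per the submitters' processing notes, TopHat2 2.0.10, Cuffdiff 2.2.1 and mm10 were used, with annotation and strand setting not given in the sources used here. In the deposited table the header names no unit, and FPKM was taken because Cuffdiff writes it. How the authors scaled the libraries to each other is not stated.

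Of 23352 lines, 1 was empty and 3 held no number. The 23348 others included 98 joint entries. Symbols of predicted genes (Gm with digits, Rik, LOC) and small RNAs (Mir, Snor, Scarna, Rnu, Rny and 5S entries), 3897 in all, were left out by pattern, and genes under 1 FPKM in both libraries were not counted. A gene under 1 FPKM in only 1 library was measured through the other, which fixed the direction of its difference. Differences were CD2-Ostm1 gl/gl minus wild type of log2(FPKM + 1), which understates the change of low genes, and 2-fold on that scale was the threshold. No test was made. Depth was read from the lowest values, assuming fragments of 200 bases, as a rough estimate that covers counting error only. Exons, loci and 50-base words came from GENCODE vM21 transcripts (mm10) and promoters from RefSeq. The counting was tested on simulated data. Python 3.11.15 was used.

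The 35 gene lists and their members were chosen with earlier results of these data known. Another 4 lists (cDC1, cDC2, type 17 and nuclear RNA) were written after the values were seen. Named were Ostm1, Clcn7, the 15 highest and 15 lowest genes at 5 FPKM or more, up to 6 members of each list past 2-fold with up to 2 abundant members under it, and 41 cell type markers. Other genes were chosen after their values were seen. A few genes the rule covers are not reported here. Alternatives were pseudocounts, scalings, filters, thresholds and sets of entries.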

Additional observations from a re-analysis of the deposited data

Results flagged for a closer look

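Entries with symbols of small RNAs and predicted genes were outside the comparison. Of 1001 such entries at 1 FPKM or more in CD2-Ostm1 gl/gl or wild type, 90 (8.99%) were at least 2-fold higher in CD2-Ostm1 gl/gl and 50 (5%) at least 2-fold lower, against 0.727% and 1.46% of the measured genes. The entries listed at 0 were 20 in CD2-Ostm1 gl/gl and 21 in wild type. Length, depth and overlap with host genes differ for such entries, and their part in these counts was not tested.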

How the results depend on the processing

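No paired analysis was possible because each genotype has 1 library. The counts of genes at least 2-fold higher and lower, 82 and 165 as reported, followed the pseudocount: they were 293 and 278 with 0.1, and 18 and 52 with 5. They were 49 and 95 with a filter of 5 FPKM. At 1.5-fold they were 430 and 468, and at 4-fold 4 and 26. With small RNAs and predicted genes included, 172 were higher. The other counts stayed within 1.5 times. Rescaling by the median of gene ratios gave 103 higher and 156 lower, and subtracting the median of genes of like level, an alternative chosen after seeing the data, gave 71 and 181. In that last setting the median of the chemokine receptor and homing genes was 0.14 where it had been -0.11, the only list median to change sign by more than 0.1 on both sides over all settings. Of 287 list medians recomputed, 255 moved by less than 0.2. For the 241 genes examined singly, no setting could reverse a difference past 2-fold, so direction was not tested. With a pseudocount of 5, 63 of those past 2-fold were under it, and with 0.1, 14 more passed it. Blk, Klrb1c and Ccl25 were under 2-fold with either rescaling and Pax1 with the equal upper quartile. Pax5, Il18r1, Id2, Itgae, Jpx and Cecr2 were so with the level subtracted. In the other direction, Cd79a, Blnk, Fcrla and Eif3j2 passed 2-fold with either rescaling. Tfrc, Malat1 and Bzrap1 passed it with the equal upper quartile. With the level subtracted, Tfrc, Malat1, Eif3j2, Rn45s, Fcer1a and Pf4 passed it. Depth limits the low genes: at 1 FPKM a 2 kb transcript had about 50.1 fragments in CD2-Ostm1 gl/gl and 83.9 in wild type.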

Other observations

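Some epithelial genes outside the lists were chosen after their values were seen, so their order of libraries adds no support to that of the keratins. Cldn1, a tight junction protein, had 0.5202 FPKM in CD2-Ostm1 gl/gl, 6.69 in gl/gl and 2.602 in wild type. Krt17, another keratin, had 0.802 FPKM in CD2-Ostm1 gl/gl, 4.66 in gl/gl and 4.23 in wild type, and Pax1, a factor of the pharyngeal pouches from which the thymus forms, had 0.524 FPKM in CD2-Ostm1 gl/gl, 4.202 in gl/gl and 2.12 in wild type. Cldn1, Krt17 and Pax1 were under 1 FPKM in CD2-Ostm1 gl/gl and were measured only through wild type, which fixed their direction. Tbata, a thymic stromal protein, had 5.17 FPKM in CD2-Ostm1 gl/gl, 20.7 in gl/gl and 13.7 in wild type.

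Ly49 receptor genes of NK cells share a locus in the table and are close copies of each other, so their separate values are uncertain. Klra9 had 2.96 FPKM in CD2-Ostm1 gl/gl, 4.603 in gl/gl and 12.1 in wild type, and Klra3 had 0.846 FPKM in CD2-Ostm1 gl/gl, 1.87 in gl/gl and 3.98 in wild type. Ccr10, a chemokine receptor, had 6.59 FPKM in CD2-Ostm1 gl/gl, 13.2 in gl/gl and 23.7 in wild type, and Gpr44, a prostaglandin D2 receptor of type 2 cells, had 2.19 FPKM in CD2-Ostm1 gl/gl, 5.28 in gl/gl and 8.88 in wild type. Stab2, an endothelial scavenger receptor, had 3.13 FPKM in CD2-Ostm1 gl/gl, 4.001 in gl/gl and 17.1 in wild type, and Zfp366, a nuclear factor of dendritic cells, had 0.405 FPKM in CD2-Ostm1 gl/gl, 0.563 in gl/gl and 3.45 in wild type. By chromosome, the share of measured genes past 2-fold was highest on chromosome 16 (3.61% of 360), against 2.19% of all measured genes. Chromosome 6 (3.35% of 568), chromosome 14 (3.16% of 380) and chromosome 17 (3.1% of 612) followed. The stefin, chymase and class II genes lie on chromosomes 16, 14 and 17, and their part in these shares was not tested.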
